A study of Mus musculus with 24 samples.

Results

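The genes examined here are 10 genes of the Schwann cell basal lamina and its receptors, out of 37074 gene names on the array. They were taken by name and not by their values, although earlier results of these data were known when they were chosen. They are the laminin chains Lama2, Lama4, Lamb1 and Lamc1, the laminin linker Nid1, the integrin subunits Itga6, Itga7, Itgb1 and Itgb4, and the dystroglycan gene Dag1. Each gene was followed through its gene probe with the highest mean log2 value over the 24 arrays, and the other 25 probes with these gene names served as a check. All 10 of these brightest probes were well above background on all 24 arrays, none was saturated, and all 10 were among the 36409 probes tested.

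RNA came from the lumbar roots of C57BL/6 mice of both sexes, with no treatment or transgene in any group. The ventral root supplied the efferent fibres (EN) and the dorsal root the afferent fibres (AN), each at birth (P0, day 0 in the labels) and at ages of 1, 3 and 5 weeks (1 W, 3 W and 5 W). Every one of these 8 groups had 3 arrays. The methods describe pooled animals, with a common tube for the fibres of a group, and 3 independent experiments, and p values therefore measure only the spread between these samples. The roots were dissected and not sorted by cell type, so that a signal comes from every cell in the root, and fewer cells of a type cannot be told apart from less RNA per cell.

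Laminins are trimers of an alpha, a beta and a gamma chain that assemble into a sheet around each Schwann cell and its axon, and nidogen ties this sheet to the collagen network beside it. Schwann cells hold on to the sheet through integrins, which are pairs of an alpha and a beta subunit, and through dystroglycan, which binds laminin by its sugar chains. Mice and people that lack the laminin α2 chain have poorly sorted and poorly myelinated axons in their spinal roots, which is why these genes are of interest in the postnatal weeks when the roots myelinate.

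The defining genes of myelinating Schwann cells were present in every group. All 6 markers were above background on all 24 arrays, and their summed log2 signal lay between 18.73 and 19.45 at P0 and between 19.99 and 20.12 at 5 W. The 5 proliferation markers fell from a summed range of 15.14 to 16.08 at P0 to 11.22 to 11.84 at 5 W. AN replicate 3 at 3 W stood apart. Its 6 sensory neuron markers summed to 17.81, against 12.89 and 12.45 on the other AN arrays of that age, its mean correlation with them was 0.961, and its weight in a fit with array weights was the lowest at 0.216. The 3 W arrays all lay on 1 of the 4 slides, without P0 or 1 W arrays, so that for 3 W against these ages no within-slide value exists.

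The probes behind the leading results carry these letters, given as the first 30 of 60 bases, 5′ to 3′. They are shown because each value below is the brightness of such an oligo and of no other part of the transcript. The Lamc1 pair is added because both probes read almost the same site, shifted by 2 bases. In that pair, capitals mark the 28 printed bases that both share, while 2 of the 58 bases of their overlap differ further on.
Itgb4: cataaagtgggtagaggtgatacaaggtct
Lama4: ttggatgtagactcagaagtgaaccatgta
Lamc1, brightest probe: TGTGGCCCTTTTCAATGTGCCTTCACTTta
Lamc1, second probe: acTGTGGCCCTTTTCAATGTGCCTTCACTT

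In mm9, the build of the probe annotation in the files, the Itgb4 probe lies on the plus strand at chr11:115869557-115869616 and the Lama4 probe on the plus strand at chr10:38825794-38825853. The Lamc1 probes start at chr1:155066154 and chr1:155066156 on the minus strand. The Dag1 probe lies at chr9:108108324-108108383 on the minus strand. The annotation in the files names the transcript of each probe but not the exon or untranslated region that it falls in.

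Over the first 5 weeks, the genes that changed most went in opposite directions. Integrin β4 (Itgb4) rose 3.00-fold in EN and 2.81-fold in AN and dystroglycan (Dag1) 1.78-fold and 1.72-fold, whereas the laminin α4 chain (Lama4) fell 2.69-fold and 2.90-fold. The γ1 chain (Lamc1) fell less, and integrin β1 (Itgb1) stayed within 0.12 log2 units of its P0 mean at 5 W. At 5 W against P0 in EN, 4 of the 10 genes rose and 2 fell, and in AN 2 rose and 4 fell. Of all probes tested, 28.2% rose and 26.0% fell in this comparison in EN, and 26.4% rose and 24.2% fell in AN, so the number of changed genes was not far from that of the array as a whole. The median log2 fold change of the 10 genes was 0.04 in EN and -0.10 in AN, beside 0.04 and 0.03 over all probes.

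**Figure D1:**
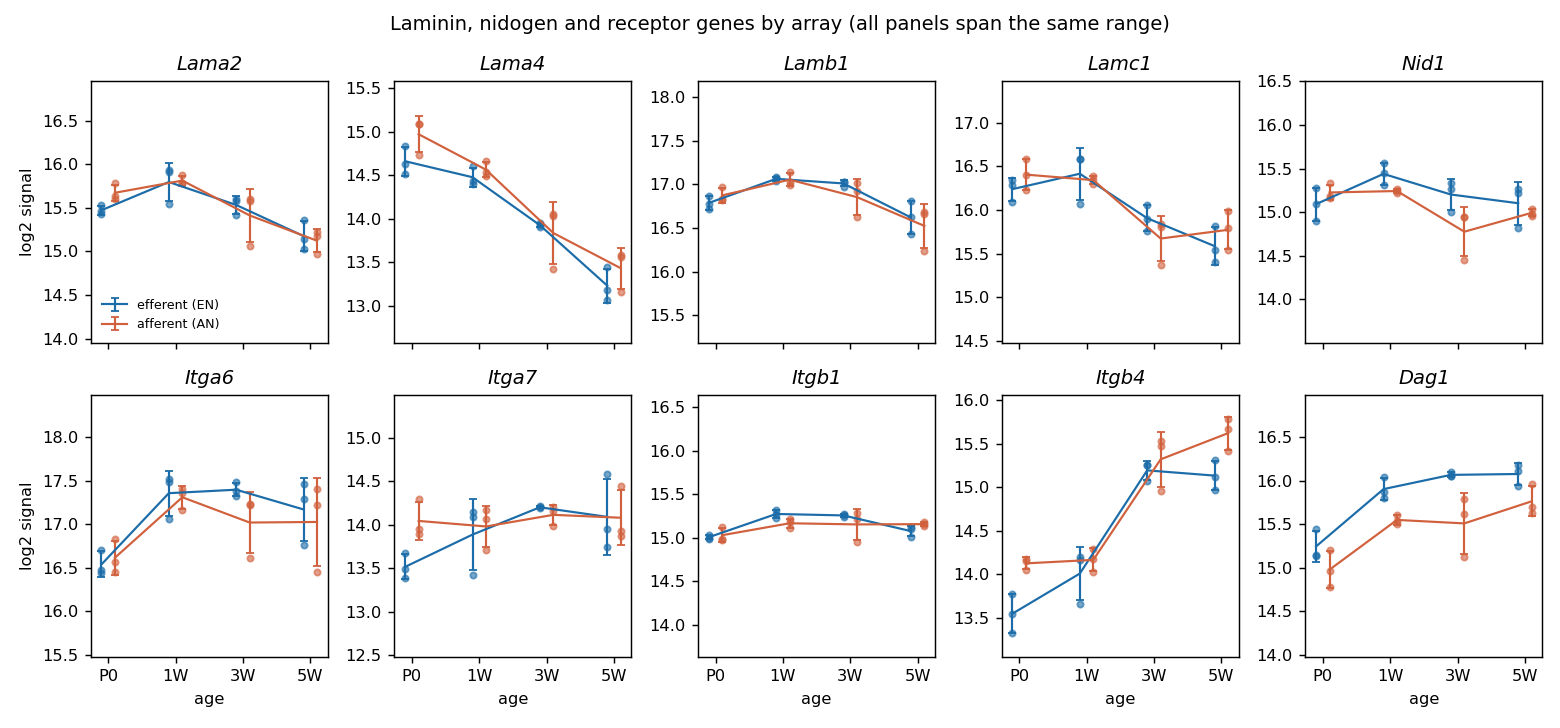
Log2 signal of each gene on each of the 24 arrays, by age (P0, 1 W, 3 W, 5 W), for EN (blue) and AN (orange). Points are arrays, lines join group means, bars are the SD of 3 arrays, and every panel spans the same range of log2 units. Lama4 descends at each step, Itgb4 steps up between 1 W and 3 W, and the Dag1 means of AN lie below those of EN at all 4 ages.

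The plot of values by array shows the course of each gene. Levels are compared only within a probe, since probes differ in their efficiency. All differences below are in log2 units of the deposited, quantile-normalised table. Adjusted p values are those of limma with Benjamini-Hochberg adjustment over all 36409 probes, and a gene is said to rise or fall only where its adjusted p was below 0.05.

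The laminin α4 chain, which Schwann cells make beside α2 and which blood vessels make as well, showed the largest fall of the 10 genes. In EN, Lama4 read 14.51, 14.84 and 14.63 at P0, then 14.40, 14.60 and 14.43 at 1 W, 13.95, 13.90 and 13.93 at 3 W, and 13.45, 13.07 and 13.18 at 5 W. In AN it read 14.73, 15.09 and 15.09 at P0, 14.54, 14.49 and 14.66 at 1 W, 14.03, 14.06 and 13.42 at 3 W, and 13.58, 13.16 and 13.56 at 5 W. From 3 W on, every array was below every P0 array of the same root, whereas the EN arrays at 1 W still overlapped those at P0. By 5 W, Lama4 was 2.69-fold lower in EN (log2 fold change -1.43 ± 0.17 SE, n = 3 and 3, adjusted p = 1.01e-06). In AN it was 2.90-fold lower (-1.54 ± 0.17, adjusted p = 4.02e-07).

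The fall of Lama4 continued late. In EN the step from 3 W to 5 W was -0.70 ± 0.17 (adjusted p = 0.0342), and Lama4 was the only one of the 10 genes called at this step, where 2.25% of all probes were called. This call was lost when any EN array at 3 W, or EN replicate 2 or 3 at 5 W, was left out. In AN that step was -0.41 ± 0.17 (adjusted p = 0.187), 0 genes were called, 2 had an unadjusted p below 0.05 (Lama4 and Lamb1), and 3.67% of all probes were called. Without the AN array that stands apart it was -0.61 (adjusted p = 0.0377). Both other tested Lama4 probes fell as well by 5 W, by 1.39 and 2.22 in EN and by 1.59 and 1.46 in AN. On the slide that held P0 and 5 W arrays together, the difference was -1.66 in EN and -1.93 in AN. Each value rests on 1 array at 5 W and 2 at P0. That 5 W array read the lowest of its group in each root (13.07 and 13.16).

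The genes whose 8 group means ran most nearly in parallel with Lama4, among 16895 genes, were Ccnjl (Pearson r = 0.995), Cenph (0.993), which encodes a centromere protein, and Poc1a (0.993), which encodes a centriole protein. The proliferation markers fell over the same ages, as given above, and so did 5 of 6 markers of immature Schwann cells, whose summed signal went from between 15.89 and 16.37 at P0 to between 12.82 and 14.90 at 5 W. The 6 endothelial markers summed to 14.41 to 14.74 at P0 and 14.21 to 14.91 at 5 W in EN, and to 14.61 to 15.29 and 14.04 to 14.75 in AN. Such a sum follows its brightest genes. By gene, from P0 to 5 W in EN, Cdh5 and Emcn fell (log2 change -1.08 and -0.81) and Tek rose (0.50). In AN, Cdh5, Emcn and Kdr fell (-1.86, -1.40 and -0.73). The other endothelial markers did not pass the test. The part of these cells in the Lama4 values was not tested.

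The laminin α2 chain, the α chain of the main Schwann cell laminin, moved less and later by its brightest probe. In EN, Lama2 read 15.46, 15.43 and 15.53 at P0, 15.91, 15.94 and 15.54 at 1 W, 15.58, 15.42 and 15.60 at 3 W, and 15.36, 15.14 and 15.03 at 5 W. In AN it read 15.64, 15.60 and 15.78 at P0, 15.78, 15.88 and 15.78 at 1 W, 15.58, 15.60 and 15.06 at 3 W, and 15.22, 14.97 and 15.18 at 5 W. The 5 W arrays lay below all P0 arrays in both roots, but the fall passed the test in AN (-0.55 ± 0.14, adjusted p = 0.00352) and not in EN (-0.30 ± 0.14, adjusted p = 0.0899). Of the 4 other Lama2 probes, 3 fell in both roots at 5 W against P0. The closest courses were those of Bcl2l13 (r = 0.985), Kctd12b (0.967) and Actg1 (0.960).

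Set against each other on the same array, the brightest probes of the α chains diverged. Some other Lama2 probes fell more than the brightest, as given above, so the ratio depends on the Lama2 probe used. The log2 ratio of Lama2 to Lama4 rose by 1.13 from P0 to 5 W in EN (SD 0.11 at 5 W and 0.19 at P0) and by 0.99 in AN (SD 0.11 and 0.20). It was already 0.51 and 0.55 above its P0 mean at 1 W, and at each later age every array exceeded every P0 array. The exact two-sided permutation test gave p = 0.1 for each of these, the smallest value that 3 arrays against 3 allow.

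The β1 and γ1 chains complete these trimers. Lamb1 had group means between 16.52 and 17.06, and its change from P0 to 5 W was -0.35 ± 0.13 in AN (adjusted p = 0.0307) and -0.17 ± 0.13 in EN (adjusted p = 0.288). The call in AN was lost when either of 2 arrays was left out, with values down to -0.21. All 4 other Lamb1 probes read lower at 5 W in both roots, by 0.37 to 1.40, and 3 of the 4 were called in each. Lamc1 read 16.29, 16.09 and 16.34 in EN at P0 and 15.82, 15.54 and 15.40 at 5 W. In AN it read 16.40, 16.23 and 16.59 at P0 and 15.99, 15.54 and 15.79 at 5 W. The ages did not overlap in either root, and Lamc1 fell 1.57-fold in EN (-0.65 ± 0.17, adjusted p = 0.00351) and 1.56-fold in AN (-0.64 ± 0.17, adjusted p = 0.00431). The second Lamc1 probe, whose letters are given above and which reads almost the same site, fell by 0.92 in EN and by 0.72 in AN. All 3 other Lamc1 probes read lower at 5 W in both roots, by at least 0.43, but only 1 of the 3 was called in each.

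Nidogen-1, which links laminin to collagen IV, had no change from P0 to 5 W that passed the test, with 0.01 ± 0.15 in EN and -0.23 ± 0.15 in AN. In AN at 3 W it was 0.45 ± 0.15 lower than at P0 (adjusted p = 0.0172). That call rested on the array that stands apart, since Nid1 read 14.94, 14.94 and 14.45 there and the difference without replicate 3 was -0.28 (adjusted p = 0.108). A dimmer Nid1 probe annotated to another transcript fell by 1.27 in EN and by 1.63 in AN from P0 to 5 W. The remaining probe, annotated to the same transcript as the brightest, rose by 0.88 in EN at 3 W. At 5 W it gave 0.17 in EN and -0.29 in AN without passing, so the direction for Nid1 depends on the probe.

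**Figure D2:**
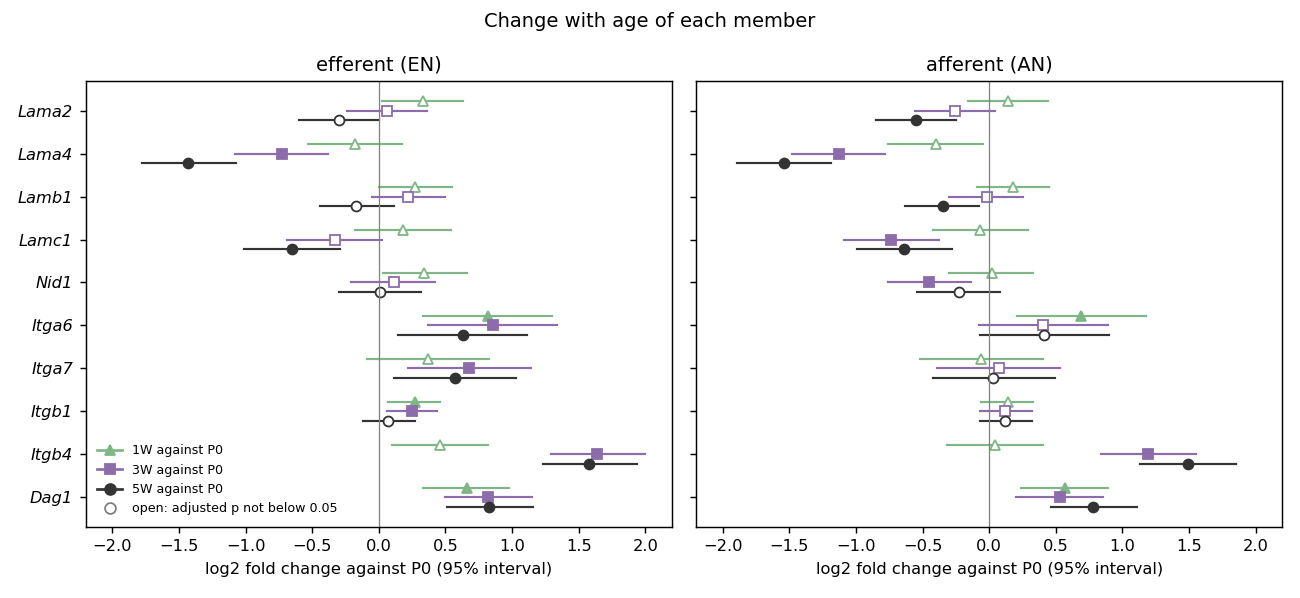
Log2 fold change against P0 for each gene at 1 W (triangles), 3 W (squares) and 5 W (circles), in EN on the left and AN on the right. Bars are 95% intervals from the limma fit, and filled symbols have an adjusted p below 0.05. Itgb4 and Lama4 lie farthest from 0 at 5 W, on opposite sides, while Itgb1 stays close to 0.

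Among the receptors, integrin β4, which pairs with α6 and which Schwann cells place on the surface facing the basal lamina, rose most. In EN, Itgb4 read 13.55, 13.77 and 13.33 at P0, 14.17, 14.20 and 13.66 at 1 W, 15.07, 15.26 and 15.25 at 3 W, and 14.97, 15.31 and 15.12 at 5 W. In AN it read 14.05, 14.15 and 14.18 at P0, 14.29, 14.18 and 14.03 at 1 W, 15.47, 15.53 and 14.96 at 3 W, and 15.41, 15.78 and 15.67 at 5 W. The values at P0 and 1 W overlapped in each root, and those at 3 W and 5 W lay above all of them. Itgb4 was 3.00-fold higher at 5 W than at P0 in EN (1.58 ± 0.17, adjusted p = 3.67e-07) and 2.81-fold higher in AN (1.49 ± 0.17, adjusted p = 7.92e-07).

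Most of this rise fell between 1 W and 3 W, with 1.18 ± 0.17 in EN (adjusted p = 6.23e-05) and 1.15 ± 0.17 in AN (adjusted p = 8e-05). At 1 W against P0 the difference was 0.46 ± 0.17 in EN (adjusted p = 0.053) and 0.04 ± 0.17 in AN (adjusted p = 0.904). Because all 3 W arrays shared a slide, the step rests on arrays of different slides. With slide as a fixed block, the difference of 3 W from P0 was 1.67 in EN and 1.22 in AN. In that fit, only the 1 array at 5 W per root on the 3 W slide joins 3 W to the other ages. On the slide with both P0 and 5 W arrays, the difference was 1.76 in EN and 1.62 in AN. Each value rests on 1 array at 5 W and 2 at P0. That 5 W array read the highest of its group in each root (15.31 and 15.78). A second, dimmer Itgb4 probe rose by 1.97 and 1.94 from P0 to 5 W, and the dimmest gave 0.13 in EN and 0.00 in AN (adjusted p = 0.714 and 0.991). The courses nearest to Itgb4 were those of Atf2 (r = 0.993), Stmn1 (0.990) and Gramd4 (0.989).

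Integrin β1, the other β subunit that pairs with α6, hardly moved. Its group means lay between 15.01 and 15.27. In EN it was 0.27 ± 0.09 above P0 at 1 W (adjusted p = 0.0372) and 0.25 ± 0.09 at 3 W (adjusted p = 0.0282). At 5 W the difference was 0.07 ± 0.09 in EN (95% interval -0.12 to 0.27) and 0.12 ± 0.09 in AN (-0.07 to 0.32). The calls at 1 W and 3 W were small in size, and that at 1 W was lost when any 1 of its 6 arrays was left out and that at 3 W in 5 of 6 such fits (0.24 to 0.26). A second Itgb1 probe, placed farther 5′, fell by 0.50 in EN and by 0.55 in AN to 5 W (adjusted p = 0.00293 and 0.00164), so the direction for Itgb1 depends on the probe.

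Within arrays, the log2 ratio of Itgb4 to Itgb1 rose by 1.51 in EN (SD 0.22 at 5 W and 0.23 at P0) and by 1.37 in AN (SD 0.20 and 0.06) from P0 to 5 W. At 1 W it was 0.19 and -0.10 from its P0 mean and the ages overlapped. At 3 W it had risen by 1.40 and 1.07, without overlap. The exact two-sided permutation test gave p = 0.1 at 3 W and 5 W in both roots, its smallest possible value.

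**Figure D3:**
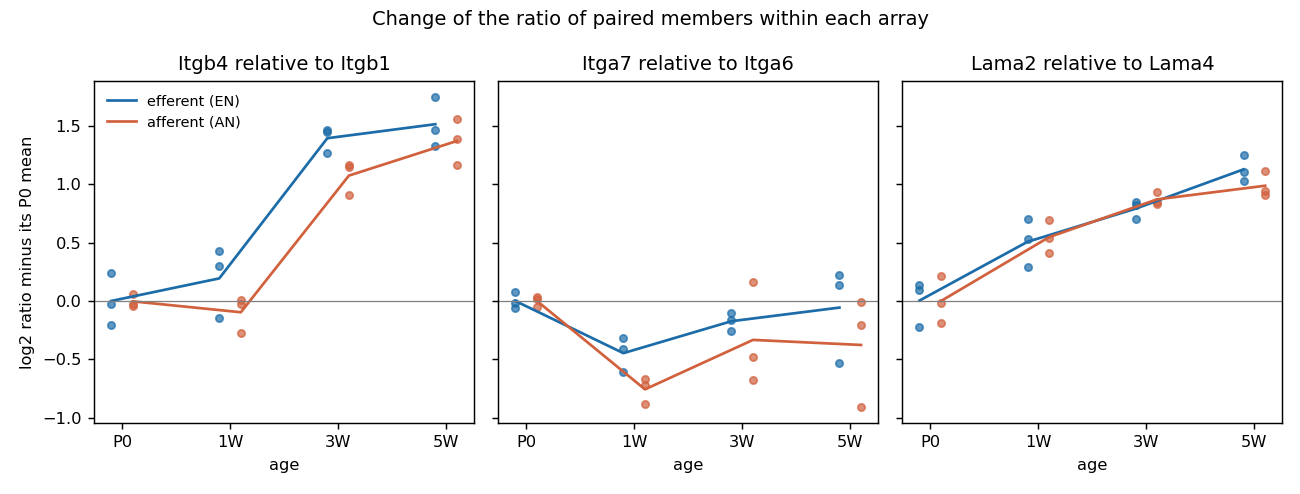
Within-array log2 ratio of Itgb4 to Itgb1, Itga7 to Itga6 and Lama2 to Lama4, each minus its mean at P0 in the same root, by age, for EN (blue) and AN (orange). Points are arrays and lines join the means of 3 arrays. The first ratio steps up after 1 W, the third rises at every step, and the second falls at 1 W and then scatters.

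Integrin α6 (Itga6) rose early. In EN it read 16.71, 16.44 and 16.47 at P0, 17.52, 17.49 and 17.06 at 1 W, 17.48, 17.38 and 17.33 at 3 W, and 17.46, 16.76 and 17.29 at 5 W. In AN it read 16.83, 16.45 and 16.57 at P0, 17.36, 17.41 and 17.16 at 1 W, 17.23, 17.22 and 16.61 at 3 W, and 17.22, 16.45 and 17.41 at 5 W. Every 1 W array exceeded every P0 array in each root. The 1 W rise was 1.76-fold in EN (0.82 ± 0.23, adjusted p = 0.0133) and 1.62-fold in AN (0.69 ± 0.23, adjusted p = 0.0386). The call was lost in EN in 2 and in AN in 4 of the 6 fits that left out an array of the comparison, at 0.61 to 0.75.

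Afterwards Itga6 stayed above P0 in EN, with 0.86 ± 0.23 at 3 W (adjusted p = 0.0045) and 0.63 ± 0.23 at 5 W (adjusted p = 0.0289), the last being lost in 4 of 6 fits without an array (0.48 to 0.59). In AN the later differences of 0.40 ± 0.23 and 0.41 ± 0.23 did not pass (adjusted p = 0.154 and 0.148), and 1 array at each of these ages lay at the P0 level. Without the AN array that stands apart, the 3 W difference was 0.61 (adjusted p = 0.0433). With slide as a fixed block, the later EN calls were lost (0.33 at 3 W, adjusted p = 0.256, and 0.36 at 5 W, adjusted p = 0.0853). The 1 W rise was called in both roots in that fit. Of the 4 other Itga6 probes, 2 that are annotated to other transcripts fell in EN from P0 to 5 W, by 1.08 and 0.47, and the second brightest rose by 0.47. At 3 W, 2 of the 4 were called lower than P0 in EN (lowest -1.03). In AN at 3 W all 4 read lower (-0.73 to -0.05) without a call. In AN at 5 W, 1 of the 4 read higher and 1 was called lower. At 1 W all 4 read higher in both roots, and 1 was called in each. The later direction for Itga6 thus depends on the probe.

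Integrin α7 (Itga7), a laminin receptor subunit best known from muscle and also made by Schwann cells, rose in EN, while its changes in AN did not pass the test. In EN it read 13.67, 13.49 and 13.39 at P0, 14.09, 14.15 and 13.42 at 1 W, 14.20, 14.19 and 14.21 at 3 W, and 14.58, 13.95 and 13.74 at 5 W. In AN it read 14.29, 13.89 and 13.95 at P0, 14.06, 14.17 and 13.71 at 1 W, 13.98, 14.16 and 14.20 at 3 W, and 14.44, 13.87 and 13.93 at 5 W. The AN arrays of all ages overlapped, and at P0 every AN array lay above every EN array. Itga7 was 1.60-fold higher at 3 W than at P0 in EN (0.68 ± 0.22, adjusted p = 0.0134) and 1.49-fold higher at 5 W (0.57 ± 0.22, adjusted p = 0.0343), against 0.07 ± 0.22 and 0.03 ± 0.22 in AN. The call at 5 W was lost without EN replicate 1 of 5 W, or without EN replicate 2 or 3 of P0, at 0.33 to 0.56.

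The difference between the roots in this change was -0.61 ± 0.31 at 3 W (adjusted p = 0.59) and -0.54 ± 0.31 at 5 W (adjusted p = 0.595) without pairing. Same-numbered EN and AN arrays deviated together, and with the pair as a block these were -0.61 ± 0.13 (adjusted p = 0.0346) and -0.54 ± 0.13 (adjusted p = 0.0404), in a fit that called 4.12% and 6.77% of all probes. A second Itga7 probe gave 0.71 in EN and -0.16 in AN at 5 W. Genes near to Itga7 in course were Zfp418 (r = 0.945) and Gm550 (0.923). The summed signal of the 6 skeletal muscle markers ranged from 15.78 to 17.09 at P0 and from 13.05 to 14.41 at 5 W in EN. Of these markers, 4 fell and 1, the fast myosin gene Myh4, rose in EN (log2 change 5.95, adjusted p = 0.00296), and in AN 2 fell and Myh4 rose (7.13, adjusted p = 0.000712). Their part in the Itga7 values was not tested.

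The log2 ratio of Itga7 to Itga6 within arrays fell by 0.45 in EN and by 0.76 in AN at 1 W, without overlap (exact two-sided permutation p = 0.1 in each, the smallest possible). At 5 W it was -0.06 from its P0 mean in EN (p = 1.0, exact permutation) and -0.38 in AN (p = 0.2, exact permutation), with overlap in both.

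Dystroglycan, the laminin receptor that links the basal lamina to utrophin and dystrophin inside the cell, rose within the first week and held its level. In EN, Dag1 read 15.45, 15.15 and 15.14 at P0, 16.04, 15.87 and 15.80 at 1 W, 16.10, 16.05 and 16.05 at 3 W, and 16.18, 15.94 and 16.11 at 5 W. In AN it read 15.20, 14.78 and 14.96 at P0, 15.61, 15.54 and 15.50 at 1 W, 15.79, 15.62 and 15.12 at 3 W, and 15.63, 15.70 and 15.96 at 5 W. All later EN arrays exceeded all P0 arrays, and in AN only the array that stands apart at 3 W fell back among them. At 1 W, Dag1 was 1.58-fold higher in EN (0.66 ± 0.15, adjusted p = 0.00402) and 1.48-fold higher in AN (0.57 ± 0.15, adjusted p = 0.0126), the latter being lost without AN replicate 2 of P0 (0.47). At 5 W it was 1.78-fold higher in EN (0.83 ± 0.15, adjusted p = 0.000176) and 1.72-fold higher in AN (0.78 ± 0.15, adjusted p = 0.000342).

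On the slide with both ages, the 5 W difference of Dag1 was 0.80 in EN and 0.82 in AN, each from 1 array at 5 W and 2 at P0. Dag1 has a single probe on this array, so that no second probe can be set beside it. The closest courses were those of F630040K05Rik (r = 0.995), Prdx1 (0.992) and Lmntd2 (0.992).

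The bases before a gene's start are shown for Dag1, which rose, and for Lama2, which fell in AN and whose window was the poorest in G and C of the 6 windows found. The RefSeq promoter table of GRCm38.p6 held 5 of the 10 genes (Lama2, Lamb1, Nid1, Itgb1 and Dag1, the last with 2 starts, of which the first is shown). Each window is the 250 bases before the start, 5′ to 3′ on the gene's strand, and capitals mark the GC box GGGCGG on either strand. The Dag1 window is chr9:108263959-108264208 and the Lama2 window chr10:27616943-27617192, both on the minus strand. The starts are those of the promoter table, and they lie inside the full RefSeq span of the gene, by 19 bases for Dag1 and by 249 bases for Lama2, so that nearly all of the Lama2 window is within the annotated gene.
Dag1: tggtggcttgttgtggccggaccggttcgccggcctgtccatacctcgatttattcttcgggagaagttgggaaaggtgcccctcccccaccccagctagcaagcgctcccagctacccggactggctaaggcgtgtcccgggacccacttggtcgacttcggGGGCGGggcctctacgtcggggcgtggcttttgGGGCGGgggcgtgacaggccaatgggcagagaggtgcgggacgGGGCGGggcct
Lama2: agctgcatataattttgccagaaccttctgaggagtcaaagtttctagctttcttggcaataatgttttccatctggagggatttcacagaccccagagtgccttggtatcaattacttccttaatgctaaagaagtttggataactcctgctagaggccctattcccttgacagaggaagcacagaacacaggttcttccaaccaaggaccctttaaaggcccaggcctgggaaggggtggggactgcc

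The Dag1 window holds 3 GC boxes and is 67.6% G or C, and the Lama2 window holds 0 and is 47.2% G or C. Of all 32851 windows in the table, 32.7% hold a GC box on either strand, and their median G and C content is 52.4%. The letters GCGGGGGCG, a form of the site bound by the EGR family, occur once in the Dag1 window, overlapping a GC box, and in 2.57% of all windows. The Lama2 window holds none of the motifs searched on both strands. The others searched were CCAAT, found in 33.8% of all windows, TATAAA, found in 12.4%, ACAAAG, found in 16.5%, and GGAATG, found in 12.6%. Of these, CCAAT occurs once in the Dag1 window and the others are absent from it. These matches describe the letters of the windows only.

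At 1 W against P0, 3 of the 10 genes rose in EN (Itga6, Itgb1 and Dag1) and 2 in AN (Itga6 and Dag1), where 15.5% and 12.3% of all probes rose. None of the 10 fell at 1 W by the limma test, in which 11.6% of all probes fell in EN and 9.35% in AN, although 6 genes in EN and 3 in AN had an unadjusted p below 0.05, Lama4 in AN being the only one of these with a negative change. At 3 W against P0, 5 rose and 1 fell in EN, beside 29.0% and 26.0% of all probes. In AN 2 rose and 3 fell, beside 26.8% and 24.9%. From 1 W to 3 W, 3 genes were called in EN (Itgb4, Lama4 and Lamc1) and 5 in AN (Itgb4, Lama2, Lama4, Lamc1 and Nid1), where 27.4% and 29.9% of all probes were called.

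Under the thresholds that the methods name, an unadjusted p below 0.05 and a fold change above 2, only Itgb4 and Lama4 were differentially expressed at 5 W against P0, in both roots. Of all probes, 30.7% in EN and 28.9% in AN passed these thresholds.

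Between the roots, these 10 genes were much alike by their brightest probes. At P0, 1 W and 5 W, 0 of the 10 passed the test (limma, adjusted p), where 0.739%, 4.0% and 6.76% of all probes did. There were 2, 1 and 1 genes with an unadjusted p below 0.05 at these ages. At 3 W, 1 gene was called, beside 5.89% of all probes. This was Dag1, which was 1.47-fold lower in AN (-0.56 ± 0.15, adjusted p = 0.0402). The call was lost in 5 of the 6 fits that left out 1 array of that age (-0.61 to -0.36). The 2 other Nid1 probes also read lower in AN at 3 W (-1.13 and -0.50), and 1 of them was called. It was the only call between the roots among the other probes of the 10 genes.

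Dag1 read lower in AN at every age, by 0.26, 0.35, 0.56 and 0.31 from the youngest age to the oldest, each with an SE of 0.15. In all 12 same-numbered pairs of arrays the AN value was the lower, by 0.15 to 0.93, with a median difference of -0.32. The largest gap came from the AN array that stands apart, and without it the 3 W difference was -0.36 (adjusted p = 0.198). With the pair as a block, Dag1 passed at 3 W (adjusted p = 0.0106), and the adjusted p was 0.303, 0.0867 and 0.082 at the other ages in order. That fit called more of the array, with 3.85%, 10.8%, 21.1% and 23.5% of all probes from P0 to 5 W. Beside these shares, 2, 0, 2 and 1 of the 10 genes passed.

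Itgb4 read higher in AN in 10 of the 12 pairs. The AN and EN arrays did not overlap at P0 (0.58 ± 0.17, adjusted p = 0.173) and at 5 W (0.49 ± 0.17, adjusted p = 0.102). With the pair as a block both passed (adjusted p = 0.0464 and 0.0293). Itga7 was 0.53 ± 0.22 higher in AN at P0 (adjusted p = 0.522), and this too passed with the block (adjusted p = 0.0137). With the block, Itga6 was lower in AN at 3 W (-0.38 ± 0.12, adjusted p = 0.0458, against 0.409 without it), a difference of -0.17 without the array that stands apart. Myelinating Schwann cell markers summed to 18.73 to 19.04 in AN and 19.26 to 19.45 in EN at P0, and their part in these differences was not tested.

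**Figure D4:**
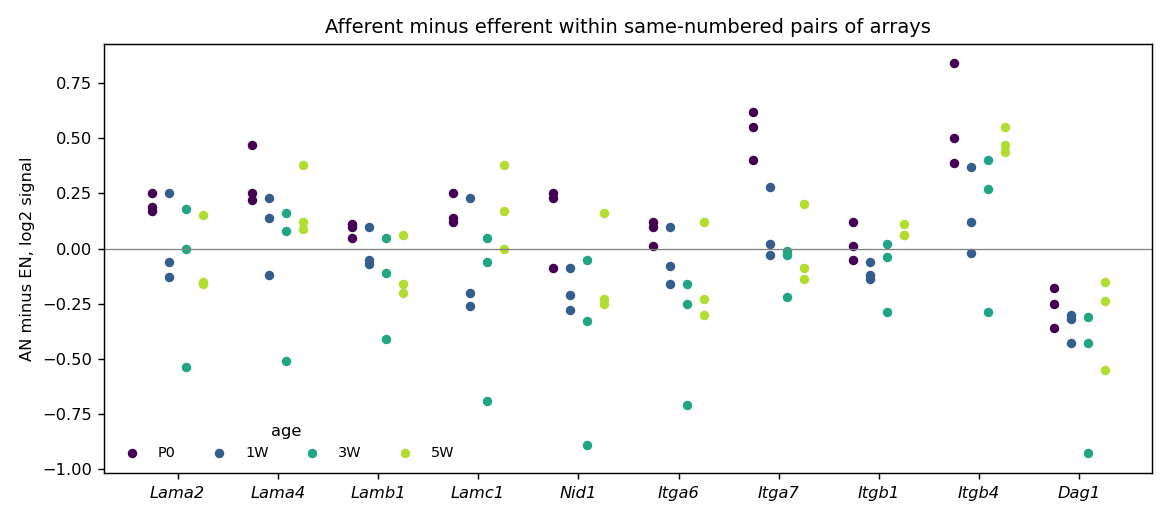
AN minus EN in log2 signal for the 12 pairs of arrays with the same age and replicate number, by gene, coloured by age. Each point is 1 pair. All 12 points of Dag1 lie below 0 and 10 of 12 points of Itgb4 lie above it, and the lowest points of several genes at 3 W are those of the pair with replicate 3.

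In the test of whether the change since P0 differed between the roots, 0 of the 10 genes passed at 1 W, 3 W or 5 W without pairing (limma, adjusted p), with 0, 1 and 0 genes at an unadjusted p below 0.05. Of all probes, 0.0632%, 0.615% and 1.14% passed. With the pair as a block, where 0.736%, 4.12% and 6.77% of all probes passed, Itga7 was the only one of the 10 that did, at 3 W and at 5 W.

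The partners of these genes were taken from lists by function, and their counts from P0 to 5 W stand beside the 28.2% of all probes that rose and 26.0% that fell in EN, and the 26.4% and 24.2% in AN. Among the other laminin chains, 6 of 7 were tested, and from P0 to 5 W in EN 3 rose and 1 fell. Lama5 rose 5.54-fold in EN (mean 10.63 at P0 and 13.10 at 5 W) and 4.68-fold in AN. Lamc3 rose 5.11-fold in EN (9.50 to 11.85) and 2.30-fold in AN, and Lamb2, the β chain typical of synapses and of mature basal laminae, rose 1.76-fold in EN and 1.53-fold in AN. Lama1, a chain of early embryonic basement membranes, fell 5.66-fold in EN (12.92 to 10.42), with a log2 change of -2.55 in AN. In AN 3 rose and 2 fell. The median of the list was 0.82 in EN and 0.00 in AN, beside 0.04 and 0.03 over all probes.

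Of 9 tested genes for other basal lamina proteins, 5 rose and 2 fell in EN and 3 rose and 2 fell in AN at 5 W. Tinagl1, which encodes a secreted protein of the matrix, rose by 2.27 log2 units in EN and 1.55 in AN, and Col15a1, a collagen of basement membrane zones, by 2.21 and 2.69. Agrn, which encodes the heparan sulphate proteoglycan agrin, rose by 0.85 in EN and gave 0.31 in AN without passing. Nid2, the second nidogen, fell by 1.00 in EN and by 1.67 in AN. The collagen IV chains Col4a1 and Col4a2 rose by 0.72 and 0.77 in EN, and Col18a1 fell by 0.61 in EN and by 1.35 in AN. Hspg2, the gene of perlecan, rose by 0.42 in AN and gave -0.29 in EN without passing. The medians of the list were 0.72 and 0.28.

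Among 10 other laminin receptors and partners, 3 rose and 2 fell in EN, and 4 rose and 3 fell in AN, with medians of 0.14 and 0.10. Cd151, a tetraspanin that binds the laminin-binding integrins, rose by 1.92 in EN and 2.04 in AN. Itga3, another laminin-binding α subunit, rose by 1.57 and 1.23, and Bcam, the Lutheran receptor of the laminin α5 chain, by 1.31 in both. Sv2a, a synaptic vesicle protein gene, fell by 3.04 in EN and gave -0.78 in AN without passing. It was the one gene of this list that was higher in AN than in EN at 1 W, 3 W and 5 W, by 2.50, 1.86 and 2.79. All 6 sensory neuron markers fell in EN from P0 to 5 W, and their summed signal lay between 14.85 and 15.61 at P0 and at most at 11.54 at 5 W. In AN 4 of the 6 fell, and the arrays at 5 W reached from within the range of EN up to 14.63. The part of these markers in the Sv2a values was not tested. Rpsa fell by 0.51 in EN and by 0.48 in AN, and in AN Itga1 rose by 1.55 while Itga2 and Itga9 fell by 0.59 and 0.61.

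**Figure D5:**
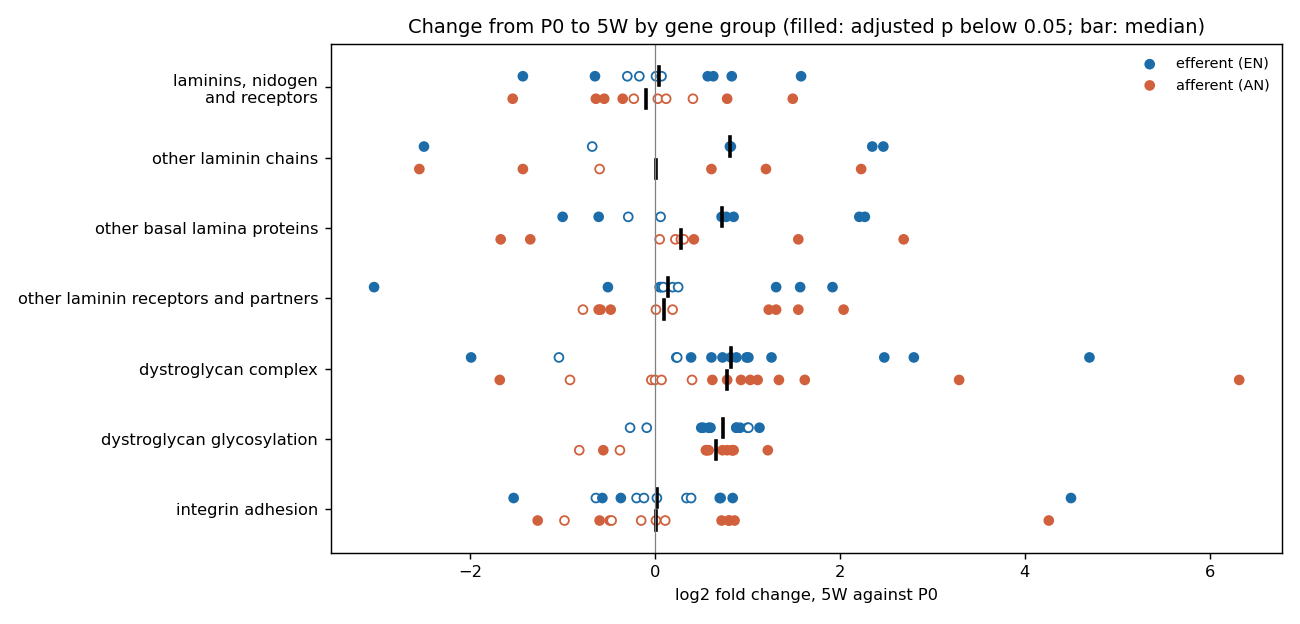
Log2 fold change from P0 to 5 W of each tested gene of the groups named in the text, for EN (blue) and AN (orange). Filled points have an adjusted p below 0.05 and black bars are list medians. The dystroglycan complex and its glycosylation genes have medians between 0.65 and 0.82, and those of the laminins, nidogen and receptors lie at 0.04 and -0.10.

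The genes of the proteins that bind dystroglycan mostly rose, as Dag1 did. Of 15 tested genes of the dystroglycan complex, 11 rose and 1 fell in EN (28.2% and 26.0% of all probes), and 9 rose and 1 fell in AN (26.4% and 24.2%), with medians of 0.82 and 0.78. Drp2, the dystrophin relative that joins dystroglycan to periaxin in Schwann cells, rose most. Its mean was 11.09 ± 0.56 (SD, n = 3) at P0 and 15.78 ± 0.30 at 5 W in EN, and 9.43 ± 0.57 and 15.74 ± 0.28 in AN. These are changes of 4.70 ± 0.29 SE (adjusted p = 2.3e-10) and 6.32 ± 0.29 (adjusted p = 6.25e-12). The sarcoglycan gene Sgcd rose by 2.48 and 1.03. Sgca, the muscle sarcoglycan, fell by 1.99 in EN, where it was above background on only 1 of 3 arrays at 5 W. The skeletal muscle markers of EN are given with Itga7, and their part in the Sgca values was not tested.

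Of the 12 genes for enzymes that build the laminin-binding sugar of dystroglycan, 9 rose and 0 fell in EN by the limma test, and 9 rose and 1 fell in AN, beside the same shares of all probes, with medians of 0.74 and 0.65. B3galnt2 rose by 1.13 in EN and 1.22 in AN. Pomgnt2 rose by 1.00 and 0.83, and B4gat1 by 0.92 and 0.78. The gene that fell in AN was Rxylt1 (-0.56). For comparison, Dag1 itself rose by 0.83 and 0.78.

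Of 13 genes for integrin adhesion proteins inside the cell, 4 rose and 3 fell in EN, and 5 rose and 3 fell in AN, with medians of 0.02 and 0.01. Lims2, an adaptor of the integrin-linked kinase, rose by 4.50 in EN and 4.26 in AN. The talins, which join β integrins to actin, went in opposite directions, with Tln1 rising by 0.84 and 0.86 and Tln2 falling by 1.53 and 1.27. Parva, an actin-binding partner of the same kinase, rose by 0.71 and 0.80. Plec, whose product plectin binds integrin β4, rose by 0.70 and 0.80, and Vcl and Ilk fell by 0.37 and 0.57 in EN and by 0.60 and 0.49 in AN. Pxn, the gene of paxillin, rose by 0.72 in AN.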

How the data were processed

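Total RNA of efferent (EN) and afferent (AN) fibres was measured on 24 one-colour Agilent 8 × 60K mouse arrays, 3 for each of 8 groups, grouped by their deposited labels. Per the file headers and the submitters' processing notes, spots were read with Feature Extraction 10.7.1.1. The authors deposited scanner intensity values of every spot and 1 table of log2 values, which their methods describe as quantile normalised in GeneSpring. Each column ranked the probes exactly as its own array's processed signal did (rank correlation 1.0, at most 0.981 with another array), with column medians of 6.319 to 6.320, so that the table is uncentred log2 intensity. Quantile normalisation makes the arrays' distributions alike, so changes are relative to the array as a whole.

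The log2 table was used for all results. The scanner intensities served for alternatives and for marks of background and saturation. Median signals per array were 45.4 to 191, with local backgrounds between 23 and 46, and 55.1% to 71.7% of spots well above background. The number of arrays limits the precision. Of 56605 gene probes, 36409 were kept, each marked well above background by the scanner software on every array of some group, and fitted with limma 3.58.1 in R 4.3.3, with 8 group means in 1 fit (16 residual and 18.35 total degrees of freedom). The 17 comparisons were AN against EN at each age, age against age in each root, and differences of changes. A gene was called at a Benjamini-Hochberg adjusted p below 0.05. The methods state p below 0.05 and fold above 2, without saying whether p was adjusted, and these thresholds were an alternative. On simulated data the procedure was checked before use. Within-array ratios were compared by exact permutation tests, 3 arrays against 3. Python 3.11.15 with pandas 2.3.3, numpy 2.4.6, scipy 1.17.1 and matplotlib 3.10.9 was used otherwise.

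EN and AN arrays of 1 age and number deviated together (correlations of 0.107 to 0.646, all 12 best with their own number), and each such pair shared a slide, so the pair was used as a block in an alternative fit. Across ages the numbers did not pair samples (-0.255 to 0.378 with P0). The members and lists were chosen with earlier results of these data known. For each list other than markers, the genes named are up to 4 with the largest change from P0 to 5 W in EN among those called, and genes of like course are the 3 with the highest Pearson r over 8 group means, which share arrays and normalisation. Some genes of these lists that the rules pick are not reported here. Some further genes of counts of 5 or fewer were named after their values were seen. Sequences came from the scanner files and RefSeq (GRCm38.p6). Protein sequences were not used here. Alternatives were other normalisations (75th percentile, quantile of the scanner signal, normexp with offset 50), filters, blocks, weights, probes and left-out arrays.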

Additional observations from a re-analysis of the deposited data

Results flagged for a closer look

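The change since P0 of Lamc3, one of the other laminin chains, differed between the roots by the test of the difference itself. The AN-EN difference at 3 W was -1.56 ± 0.27 (SE) log2 units from that at P0 (adjusted p = 0.0102), and at 5 W it was -1.15 ± 0.27 (adjusted p = 0.0429). In EN, Lamc3 had group means of 9.50, 10.16, 11.19 and 11.85 from P0 to 5 W (SD 0.13 to 0.26, n = 3), and in AN 10.27, 9.79, 10.40 and 11.47 (SD 0.03 to 0.38). The EN arrays thus lay between 9.27 and 9.79 at P0, below all AN arrays of that age (9.83 to 10.55), and at 3 W between 11.00 and 11.35, above all of them (10.08 to 10.67). Groups of 3 arrays are too small for a test of single outlying arrays.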

How the results depend on the processing

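For the counts of called genes and the ratios, 296 values under other settings stayed close to the reported one, 63 moved and 2 changed sign. For single genes, 1352 values kept direction and call, 58 lost the call, 30 gained it, 60 moved without a test, and 0 called genes changed direction. The 5 W against P0 changes of Lama4, Lamc1, Itgb4 and Dag1 kept their calls whichever single array was left out. No scaling moved the median of all probes by over 0.1 log2 units. The causes of the changes below were not tested, except that fewer arrays leave fewer degrees of freedom.

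With the scanner signal scaled to its 75th percentile, the number of the 10 genes called was 0 for AN against EN at 3 W, 0 at 1 W in AN, 1 from 1 W to 3 W in EN and 3 in AN, and 0 from 3 W to 5 W in EN. The 5 W change of the Itga7 to Itga6 ratio in EN was 0.16 there, and -0.19 to 0.18 when single arrays were left out, 0.18 being without EN replicate 3 of 5 W. Without a filter on dim probes, 0 genes were called between the roots at 3 W and 1 at 1 W in AN. With only the arrays compared, the counts were 0 between the roots at 3 W, 3 at 3 W in AN, 0 from 3 W to 5 W in EN and 3 from 1 W to 3 W in AN. With array weights they were 1 (Dag1) between the roots at 1 W, 8 at 1 W in EN, 5 from 1 W to 3 W in EN, and 2 in EN and 3 in AN from 3 W to 5 W. With the second brightest probe they were 3 at 3 W in EN and 0 from 3 W to 5 W in EN. Under an unadjusted p below 0.05 and a fold above 2, they were 0 between the roots at 3 W, 0 in EN and 0 in AN at 1 W, 1 and 2 at 3 W, 2 and 2 at 5 W, 1 and 1 from 1 W to 3 W, and 0 from 3 W to 5 W in EN.

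With the pair of same-numbered EN and AN arrays as a replicate block, 2 genes were called between the roots at P0 (Itga7 and Itgb4), 2 at 3 W (Itga6 and Dag1) and 1 at 5 W (Itgb4), and the change differed between the roots for 1 gene (Itga7) at 3 W and at 5 W. Across ages it added Itgb4 at 1 W in EN (0.46), and it changed no other call. With the slide as a fixed block, 1 gene (Itga7) was called between the roots at P0, 1 (Itga7) for the difference of change at 3 W and 1 at 5 W, 3 at 3 W in AN and 0 from 3 W to 5 W in EN.

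Leaving out single arrays gave 0 to 1 called genes between the roots at 3 W, 1 to 5 at 1 W in EN, 0 to 2 at 1 W in AN, 5 to 6 and 4 to 6 at 3 W, 4 to 6 and 5 to 6 at 5 W, 1 to 3 and 3 to 5 from 1 W to 3 W, and 0 to 1 from 3 W to 5 W in each root. At 1 W in EN the count was 1 without EN replicate 1 or 2 of 1 W and 5 without replicate 3. In AN at 1 W it was 0 without replicate 2 of P0, and 1 without replicate 3 of P0 or replicate 1 or 2 of 1 W. From 1 W to 3 W it was 1 in EN without replicate 2 of 1 W or replicate 1 or 2 of 3 W, and 3 in AN without any 1 W array or replicate 3 of 3 W. Where a group was left with 2 arrays, its spread was taken as that of the other groups.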
